A study of Mus musculus with 18 samples.

Results

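Mouse embryos of the CD1 strain, wild type (Oct4 +/+) or null (Oct4 -/-) for the transcription factor Oct4 (gene Pou5f1), were examined here for the genes that write, erase and read chromatin marks, methylate DNA or move nucleosomes. The genes were picked by symbol, as members of the Dnmt, Tet, Uhrf, Mbd, Hdac, Sirt, Kdm, Setd, Smarc, Chd, Arid, Mta, Brd, Cbx and Ezh series together with Eed and Suz12. Of the 8202 genes measured at any stage, 68 met this rule: 60 of 7082 genes at E2.5 (before the blastocyst), 51 of 6648 at E3.75 (blastocyst) and 48 of 6545 at E4.5 (late blastocyst). Each stage had 3 wild type and 3 null libraries, 18 libraries in all, made from embryos flushed from oviducts or uteri with no other treatment. The series title asks which genes depend on Oct4 in the living embryo. RNA was primed with oligo(dT) and amplified, so that reads lie near the 3′ ends of polyadenylated transcripts. Of the 68, 40 were measured at all 3 stages, 11 at 2 and 17 at 1. A pair of them, Uhrf1bp1 and Uhrf1bp1l, match the rule by name only. Levels are CPM, which the authors scaled separately for each stage. In each library they sum to 1000000 over the listed genes of its stage.

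Acetyl groups on histone tails loosen chromatin and recruit bromodomain proteins, and histone deacetylases remove them. Polycomb repressive complex 2 (PRC2) methylates histone H3 at lysine 27, heterochromatin protein 1 (HP1) binds methylated lysine 9, and Dnmt enzymes methylate cytosine in DNA. SWI/SNF and NuRD complexes move nucleosomes using ATP, and NuRD also carries deacetylases. The genome loses most of its DNA methylation during cleavage and gains it again around implantation. NuRD, SWI/SNF and PRC2 are each known to act on the exit from pluripotency in embryos or embryonic stem cells.

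Because Oct4 is a DNA-binding factor that recognises an octamer, the promoters of the 4 members that fell at either E2.5 or E3.75 are shown first. Each is the 250 bases before a start site, from RefSeq in build GRCm38.p6, 5′ to 3′ on the strand of the gene. Capitals mark a GC box (GGGCGG) or a CCAAT box (CCAAT) on either strand. The octamer (ATGCAAAT, either strand) would also be in capitals, but these windows hold none, and none of the 3 motifs contains another.
Hdac2, chr10:36974294-36974543, plus strand: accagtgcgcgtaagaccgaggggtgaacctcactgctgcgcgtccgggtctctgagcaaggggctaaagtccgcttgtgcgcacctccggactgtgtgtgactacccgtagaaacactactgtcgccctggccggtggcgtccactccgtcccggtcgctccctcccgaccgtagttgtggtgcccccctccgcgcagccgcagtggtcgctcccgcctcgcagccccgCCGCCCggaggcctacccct
Mbd3, chr10:80399532-80399781, minus strand: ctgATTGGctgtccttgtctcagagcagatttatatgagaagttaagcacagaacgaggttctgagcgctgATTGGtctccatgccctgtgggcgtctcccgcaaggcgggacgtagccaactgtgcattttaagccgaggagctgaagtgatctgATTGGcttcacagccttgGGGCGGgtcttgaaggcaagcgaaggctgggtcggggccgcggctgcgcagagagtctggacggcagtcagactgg
Setd6, chr8:95715663-95715912, plus strand: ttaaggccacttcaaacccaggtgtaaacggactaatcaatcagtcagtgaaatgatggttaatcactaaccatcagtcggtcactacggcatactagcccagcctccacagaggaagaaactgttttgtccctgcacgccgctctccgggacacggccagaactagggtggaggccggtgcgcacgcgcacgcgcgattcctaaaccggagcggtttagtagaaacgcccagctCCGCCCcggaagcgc
Cbx5, chr15:103239853-103240102, minus strand: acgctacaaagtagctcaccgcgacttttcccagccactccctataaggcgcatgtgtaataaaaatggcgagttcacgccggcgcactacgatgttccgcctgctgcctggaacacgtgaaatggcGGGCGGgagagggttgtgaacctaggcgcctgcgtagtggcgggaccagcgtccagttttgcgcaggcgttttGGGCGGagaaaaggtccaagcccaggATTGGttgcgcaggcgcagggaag

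The Hdac2 window held 27 CpG sites, the Cbx5 window 22, the Setd6 window 20 and the Mbd3 window 14. Mbd3 had 3 CCAAT boxes and Cbx5 had 1, and each of the 4 had at least 1 GC box. Cbx5 has another RefSeq start, with 7 CpG sites, and both start sites of Brd9 lay in windows with 33 CpG sites and 4 GC boxes. RefSeq windows were matched for 54 of the 68 members, 77 windows in all. Among these 77 windows 1.3% held the octamer, against 1.6% of all 32851 mouse windows and 1.06% of the 7765 windows of measured genes. A GC box was in 72.7% of member windows, 32.7% of all windows and 60.1% of windows of measured genes, and a CCAAT box in 31.2%, 33.8% and 35.3%. Member windows had a median of 21 CpG sites, against 16 for measured genes and 6 for all windows. A match is a description of these letters only.

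The reads in listed genes ranged from 364936 (E4.5 null 1) to 1922432 (E2.5 null 2) per library, and the median member had 11 to 75 reads in a library. Null groups had more of these reads by their medians, which were 1917754 reads for null and 916720 for wild type embryos of E2.5, 1375610 and 576078 for those of E3.75, and 1314657 and 543033 for those of E4.5. In every group the third library could be nearly rebuilt as a weighted sum of the first 2, with a variance of 1.03 to 1.18 times sampling noise against 1.29 to 2.63 times for the others. Each call of a member is therefore also given with those libraries left out, which was not done for the partner and marker genes. The design text speaks of 3 embryos per genotype and stage, and p-values measure only the spread between these libraries, which may be technical. The targeted gene, Pou5f1, was at 1809, 2093 and 1723 CPM in wild type embryos and 931.1, 1011 and 963.1 CPM in null ones at E2.5. In E3.75 embryos it was at 599.9, 380.4 and 546.8 against 220.8, 285.7 and 266.4 CPM. In E4.5 embryos it was at 274.4, 234.6 and 182.8 against 142.5, 95.08 and 96.79 CPM. The null libraries lay below all wild type libraries at each stage (adjusted p 0.00105, 8.57e-05 and 0.125 in limma) but were far from 0. The labels do not say which segment of the gene is deleted, so these 3′ reads may come from outside it and do not check the genotype fully.

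In the null embryos 5 members passed the test for a genotype difference at 1 stage each. Transcripts of the deacetylase Hdac2 fell at E2.5. At E3.75 the methyltransferase gene Setd6, the NuRD subunit gene Mbd3 and the HP1 gene Cbx5 fell, while the NuRD subunit gene Mta3 rose. Brd9, a SWI/SNF subunit gene, had a genotype difference that changed between E2.5 and E4.5. The test was limma on log2(CPM + 1), with Benjamini-Hochberg adjustment over all genes of the stage and a threshold of 0.05. None of these calls, that of Brd9 included, passed with the first 2 libraries of each group, that is, without the third libraries described above. With those fewer libraries, 1 of all 7082 genes was called at E2.5 and 155 of 6648 at E3.75. In these bulk samples, fewer cells of a type and less RNA per cell cannot be told apart.

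At E2.5, 1 of 60 members was called (1.67%), where 0.593% of all genes were. At E3.75, 4 of 51 were called (7.84%), 3 lower and 1 higher, where 8.2% of all genes were, so the members' share there is the share of the table. At E4.5 limma called 0 of 48 members and 0.0% of all genes, and edgeR and DESeq2 on the recovered reads also called 0 members (42 and 112 of all genes), though DESeq2 gave no adjusted p for 36 of the 48. At an unadjusted p below 0.05 there were 14 members at E2.5 (23.3%, all genes 20.4%), 13 at E3.75 (25.5%, all genes 22.8%) and 7 at E4.5 (14.6%, all genes 15.0%). Wild type and null libraries did not overlap for 24 members at E2.5 (40.0%, all genes 27.8%), 14 at E3.75 (27.5%, all genes 27.2%) and 10 at E4.5 (20.8%, all genes 22.2%). The widest gap between members and all genes was thus in the non-overlap at E2.5, with 14 members lower and 10 higher in null embryos, and it carries no test.

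The summed level of all members hardly moved with genotype. As a share of the CPM of listed genes, it took 0.427% to 0.446% of a wild type library and 0.425% to 0.436% of a null library at E2.5. The shares were 0.321% to 0.328% and 0.31% to 0.324% at E3.75, and 0.281% to 0.299% and 0.284% to 0.307% at E4.5. The median log2 difference of the members, null minus wild type, was -0.059 at E2.5 beside -0.015 for all genes, -0.01 beside -0.039 at E3.75 and -0.046 beside 0.059 at E4.5. Single members spread from -0.97 to 0.75 at E2.5, from -1.18 to 1.51 at E3.75 and from -0.95 to 1.10 at E4.5.

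**Figure D1:**
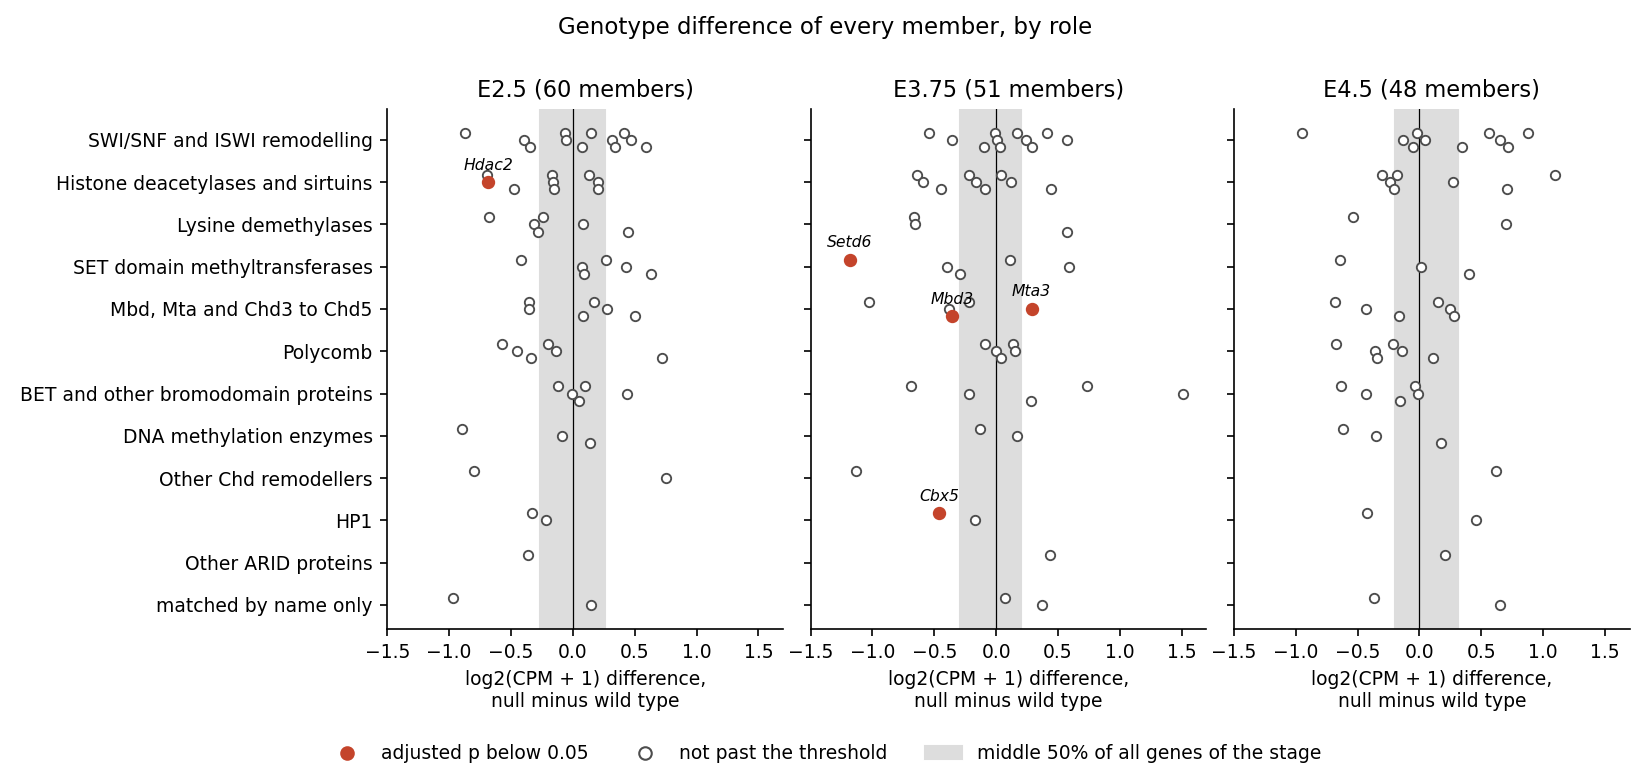
Difference in log2(CPM + 1), null minus wild type, of every measured member at each stage, with members in rows by role. Filled points passed the limma test (adjusted p below 0.05), open points did not, and the grey band spans the middle 50% of all genes of that stage; the 5 filled points are Hdac2 at E2.5 and Setd6, Mbd3, Mta3 and Cbx5 at E3.75.

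Some cell type markers differed with genotype as well. Epiblast and pluripotency markers, Pou5f1 included, summed to 2885 to 3120 CPM in wild type embryos and 1980 to 2082 CPM in null ones at E2.5 (10 of 14 listed genes measured, 1 lower by the test). That 1 gene was the targeted Pou5f1 itself, with means of 1875 and 968.3 CPM, which made up most of the gap in the sum. The sums of this list were 2106 to 2729 and 1935 to 2065 CPM at E3.75 (12 measured, 6 lower and 1 higher) and 2207 to 2457 and 1441 to 1746 CPM at E4.5 (12 measured). Within them Pou5f1 averaged 509 and 257.6 CPM at E3.75 and 230.6 and 111.5 CPM at E4.5. Trophectoderm markers were at 2920 to 3317 and 3290 to 3706 CPM at E2.5, and at 6998 to 8216 and 6263 to 7158 CPM at E3.75 (1 higher at each stage). Primitive endoderm markers were at 1318 to 1480 and 1498 to 1631 CPM at E3.75 (10 of 12 measured, 2 higher and 5 lower). The 2 higher were Dab2 (means of 629.5 and 986.2 CPM) and Col4a1 (133.9 and 181.6 CPM). The 5 lower were Sox17, Pdgfra, Lama1, Lamb1 and Lamc1, whose falls were outweighed in the sum by Dab2 alone. At E4.5 primitive endoderm markers were at 1472 to 1587 and 1255 to 1433 CPM and trophectoderm markers at 12840 to 13680 and 12120 to 13180 CPM, none called. No measured marker was at 0 in any library, and the part of these shifts in the member differences was not tested.

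Of 16 markers of maternal blood, reproductive tract and cumulus cells, 4 or 5 were measured at a stage. At E3.75 the haemoglobin genes Hba-a1 (24 to 62.8 CPM) and Hbb-bs (93.5 to 198.6 CPM) rose in null embryos (adjusted p 0.0052 and 0.00818 in limma), and the list summed to 137.3 to 208.9 against 197.7 to 491.3 CPM. Null 1 was the highest of these, and without it none of the 4 members called at E3.75 passed (adjusted p 0.0679 to 0.187). The same count of 0 came without null 3, and 1 member passed without wild type 3. With any 1 library left out, the log2 differences ran from -1.38 to -1.07 for Setd6, -0.51 to -0.37 for Cbx5, -0.41 to -0.28 for Mbd3 and 0.25 to 0.31 for Mta3. At E4.5 the list summed to 158.4 to 290.8 against 175 to 1096 CPM, again with null 1, the shallowest library, the highest. At E2.5 the list was at 1097 to 1491 and 1143 to 1390 CPM. The part of these transcripts in the member differences was not tested.

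Among the deacetylases and sirtuins, Hdac2 (ENSMUSG00000019777), a catalytic subunit of the NuRD, Sin3 and CoREST complexes, fell at E2.5. Its levels were 280.3, 212 and 233.5 CPM in wild type embryos and 148.3, 144.1 and 155.9 CPM in null ones. Every null library was below every wild type library, and the null libraries lay closer together. The log2 difference was -0.68 (SE 0.13), or 0.623-fold (95% interval 0.511 to 0.759), with an adjusted p of 0.044 in limma. The call was lost with the first 2 libraries of each group (-0.73, adjusted p 0.667), without wild type 3 (0.128) and without null 1, 2 or 3 (0.229, 0.162 and 0.244). On recovered reads the adjusted p was 0.0283 in edgeR and 0.0025 in DESeq2.

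Hdac2 was also the lower of the groups at the later stages, without passing the test. At E3.75 it averaged 244.7 ± 31.7 CPM in wild type embryos and 218.4 ± 31.2 CPM in null ones (SD, n = 3 each), and the groups overlapped. At E4.5 it averaged 202.3 ± 30.1 against 163.1 ± 6.75 CPM (SD, n = 3), a log2 difference of -0.30 (adjusted p 0.345 in limma), and the groups did not overlap. Its paralogue Hdac1 was measured at E2.5 only, at 11.4 ± 2.87 and 12.5 ± 2.44 CPM (SD, n = 3). Hdac3, the catalytic subunit of the NCoR complex, was at 65.2 and 73.6 CPM at E2.5, 56.3 and 37.7 CPM at E3.75 and 55.7 and 47.9 CPM at E4.5 (wild type, then null), with adjusted p of 0.669, 0.151 and 0.652.

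The sirtuins are NAD-dependent deacylases. Sirt6, which acts on acetylated histone H3, stood just outside the threshold at E2.5, at 117.8, 109.4 and 89.98 CPM in wild type embryos and 66.82, 68.66 and 58.4 CPM in null ones (log2 difference -0.70, SE 0.17, adjusted p 0.0669 in limma, 0.0382 in DESeq2). The groups did not overlap there. At E4.5 Sirt6 was at 20.26, 29.08 and 19.3 CPM in wild type embryos and 65.76, 25.1 and 31.27 CPM in null ones, where the null mean rests on null 1. Sirt7, a sirtuin of the nucleolus, was at 11.05, 13.57 and 7.351 against 27.4, 21.3 and 21.59 CPM at E4.5. Among the members, it had the smallest adjusted p for a higher level at that stage (log2 difference 1.10, SE 0.35, adjusted p 0.194 in limma). All 3 null libraries were above wild type for Sirt7, on 6 to 8 wild type reads, but not all wild type libraries reached the 10.42 CPM of the low-value filter, so null libraries carried it past. Sirt1 was measured at E2.5 only and overlapped, at 35.7 and 40.7 CPM.

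Summed over the 9 deacetylases and sirtuins of E2.5, levels were 595.6 to 672 CPM in wild type embryos and 477.3 to 503.2 CPM in null ones. Of these 9 genes, 6 were lower and 3 higher. Hdac2 and Sirt6 gave the widest gaps in CPM, and 1 of the 9 was called. At E3.75 the 9 measured summed to 438.1 to 520.8 against 388.4 to 432.6 CPM with none called, and at E4.5 the 7 measured summed to 351.9 to 480.6 against 367.1 to 387.9 CPM with none called. Groups of sums overlapped at E4.5 but not at the earlier stages.

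**Figure D2:**
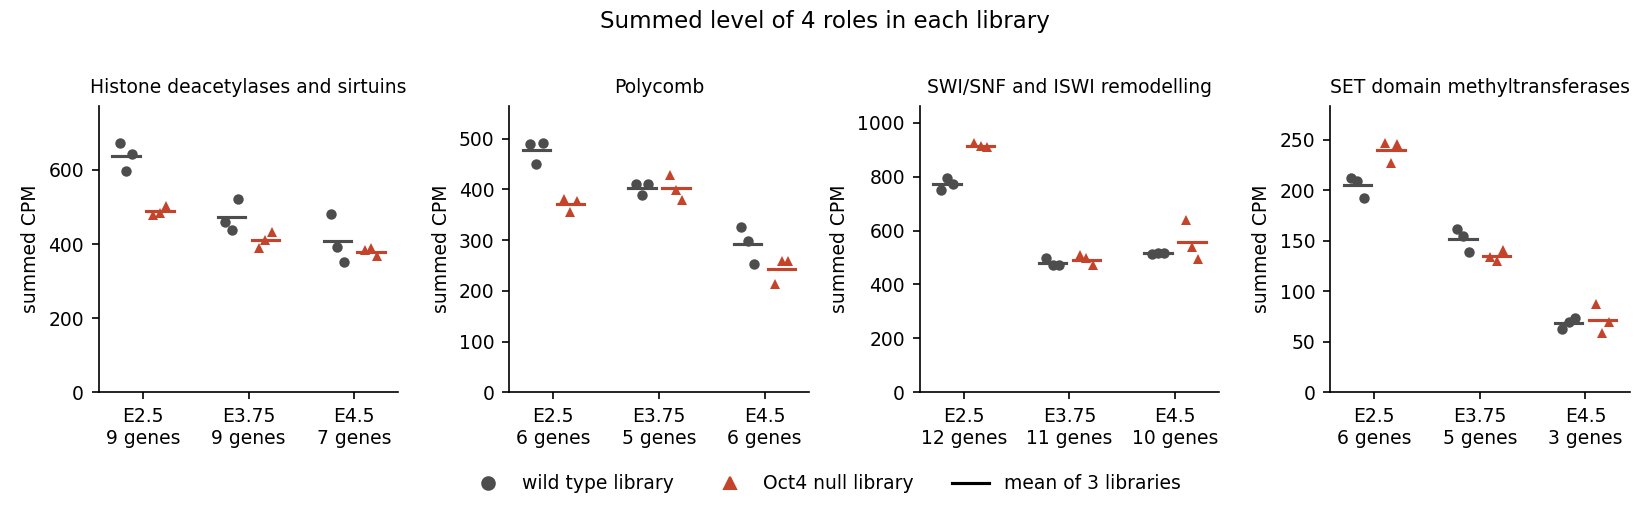
Summed CPM of 4 roles in each library at each stage, with the number of genes summed under each stage; circles are wild type and triangles null libraries, and bars mark the mean of 3 libraries. At E2.5 the null libraries lie below wild type for deacetylases and for Polycomb genes and above it for SWI/SNF and SET domain genes, with no overlap. The 4 roles are a selection, and the sums of every role not shown overlapped at E2.5.

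The members of NuRD, a remodelling and deacetylase complex, moved in opposite directions at E3.75. Mbd3 (ENSMUSG00000035478), the subunit that holds the complex together, was at 396.8, 367.6 and 381.9 CPM in wild type embryos and 268.2, 322 and 308.1 CPM in null ones. The groups did not overlap, and Mbd3 fell by 0.35 on the log2 scale (SE 0.10, adjusted p 0.0371 in limma). At E2.5 Mbd3 was at 349.1, 382.5 and 338.8 against 256.3, 296.5 and 285.2 CPM, again without overlap and with the same log2 difference of -0.35 (adjusted p 0.102). At E4.5 it was at 383.9 ± 57.3 against 426.6 ± 68 CPM (SD, n = 3), with overlapping groups. The change in its difference from E2.5 to E4.5 was 0.50 (SE 0.17, adjusted p 0.142).

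The Mbd3 call did not hold under every scaling. With TMM factors its adjusted p was 0.0737, with DESeq2 size factors 0.0733, in edgeR 0.0712, in DESeq2 0.142 and with the first 2 libraries of each group 0.264. It was also lost without wild type 1 (0.0617), wild type 3 (0.114), null 1 (0.187) or null 3 (0.0974), always with a negative difference.

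Mta3 (ENSMUSG00000055817), another NuRD subunit, was higher in null embryos. At E3.75 it was at 575.4, 570.5 and 588.5 CPM in wild type embryos and 742.2, 696.4 and 678.9 CPM in null ones, and it rose by 0.29 on the log2 scale (SE 0.08, 1.22-fold, 95% interval 1.084 to 1.373, adjusted p 0.0351 in limma). Every null library lay above every wild type library at this stage. At E2.5 the levels were 1116, 819.1 and 972.7 against 1148, 1155 and 1196 CPM (log2 difference 0.28, adjusted p 0.16), without overlap. At E4.5 they were 484.3, 525.5 and 472.3 against 498.7, 643.5 and 622.5 CPM (0.24, adjusted p 0.349), with null 1 inside the wild type range.

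The Mta3 difference was thus of like size at the 3 stages, with no change between stages beyond its error (0.01 with SE 0.15 from E2.5 to E3.75, -0.04 with SE 0.15 from E3.75 to E4.5). On recovered reads at E3.75 the adjusted p was 0.0105 in edgeR and 0.0202 in DESeq2. It was 0.252 with the first 2 libraries, and it passed without wild type 1 (0.0383) but not without any other library (0.0543 to 0.154). Mta3 and Mbd3 carried most of the reads of this role, and their differences offset each other: its 5 members of E3.75 summed to 1099 to 1132 CPM in wild type embryos and 1099 to 1135 CPM in null ones.

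The remaining NuRD and Mbd genes did not pass. Chd4, the ATPase of NuRD, was at 104.9 ± 12.5 and 82.3 ± 16.3 CPM at E2.5, 109.3 ± 17.6 and 93.2 ± 5.77 CPM at E3.75 and 59.7 ± 10.3 and 73.7 ± 21.5 CPM at E4.5 (SD, n = 3), overlapping each time. Mbd2, which replaces Mbd3 in a separate NuRD complex and binds methylated DNA, was at 41.37, 25.47 and 17.36 against 16.18, 7.27 and 16 CPM at E3.75. The groups did not overlap there, on 10 to 30 reads a library (and 1 null library under the 10.4 CPM of the low-value filter; log2 difference -1.03, SE 0.36, adjusted p 0.0855 in limma, but 0.0436 from the first 2 libraries of each group). Mbd2 overlapped later, at 27.6 and 19.3 CPM in E4.5 embryos. Mta2 stayed near the detection filter at all stages, at 9.59 to 15.3 CPM by group mean.

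**Figure D3:**
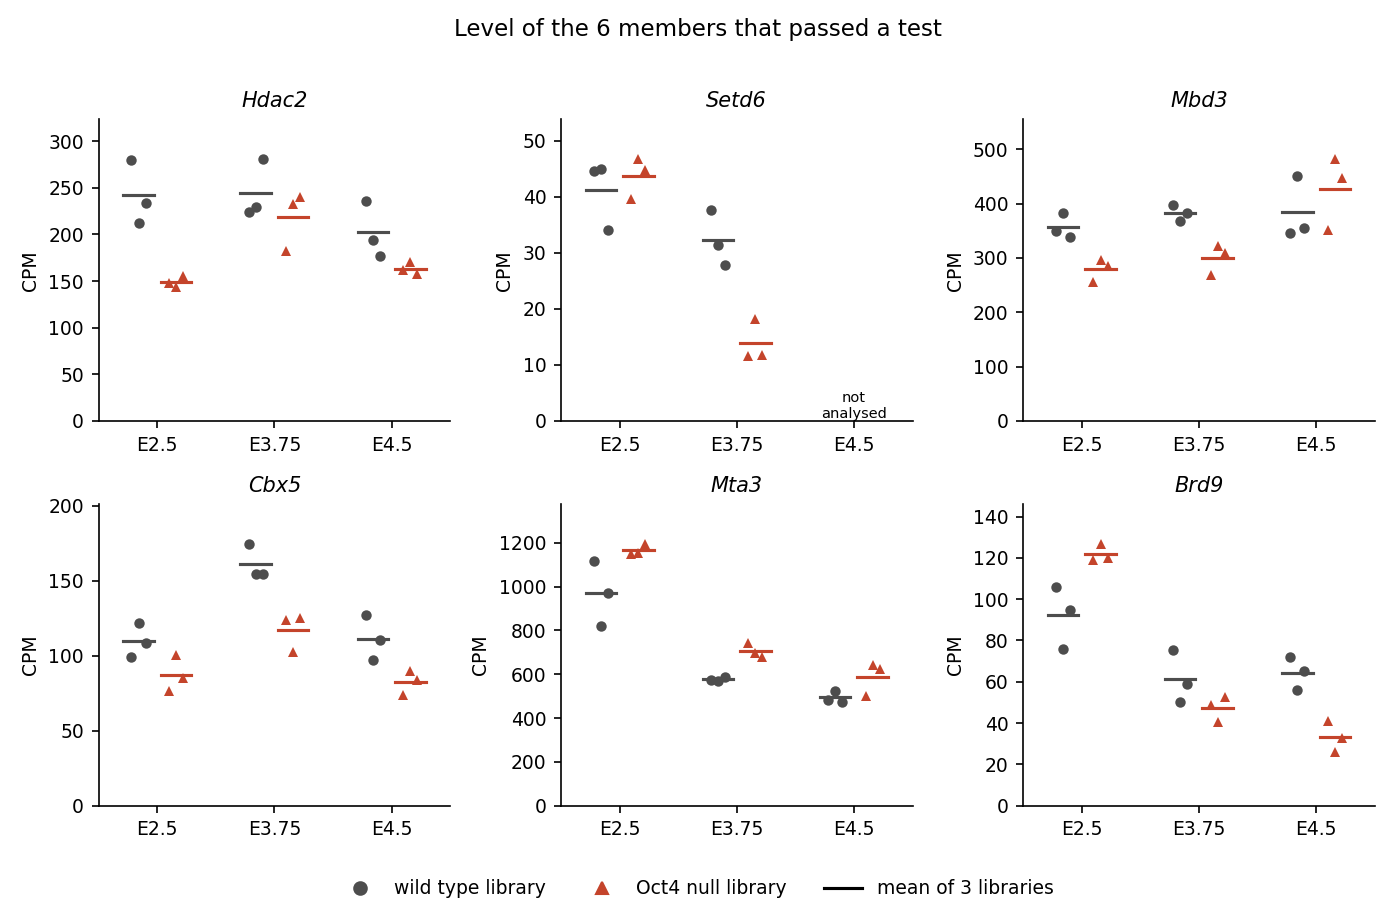
CPM in each library for the 6 members that passed a test, by stage; circles are wild type, triangles null libraries, and bars mark the mean of 3 libraries, with each axis starting at 0. Brd9 lies higher in null libraries at E2.5 and lower at E4.5, while Mta3 has a higher null mean at each stage.

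In the HP1 family, Cbx5 (HP1 alpha, ENSMUSG00000009575) fell at E3.75. It was at 174.9, 154.5 and 154.5 CPM in wild type embryos and 123.7, 102.5 and 125.2 CPM in null ones. The groups did not overlap, with a log2 difference of -0.46 (SE 0.14, 0.726-fold, 95% interval 0.596 to 0.884, adjusted p 0.0405 in limma). Cbx5 had the lower null mean at E2.5, at 110 ± 11.5 against 87.4 ± 12.4 CPM with overlap (SD, n = 3), and at E4.5, at 127.1, 96.95 and 110.3 against 73.99, 89.76 and 84.14 CPM without overlap (log2 difference -0.42, adjusted p 0.278).

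The E3.75 call of Cbx5 was lost with TMM factors (adjusted p 0.0612), DESeq2 size factors (0.0586), edgeR (0.0566), DESeq2 (0.126) and the first 2 libraries (0.192). It was kept without wild type 2 (0.0473) and lost without any other library (0.0746 to 0.16). Cbx1 (HP1 beta), at 26.9 and 22.9 CPM at E2.5, 26.9 and 23.6 CPM at E3.75 and 25.8 and 35.7 CPM at E4.5, overlapped at each stage.

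No Polycomb gene was called at any stage. Of the 6 measured at E2.5, 5 had a lower null mean (median log2 difference -0.267), and their summed level was 449.3 to 491.2 CPM in wild type against 355.3 to 380.4 CPM in null libraries. Eed, the PRC2 subunit that binds the H3K27 mark, was at 201.8, 179.7 and 201 CPM in wild type embryos and 121.2, 134.7 and 134.5 CPM in null ones. The groups did not overlap, and the adjusted p was just outside the threshold (log2 difference -0.57, SE 0.12, 0.0558 in limma, 0.0396 in edgeR and 0.0192 in DESeq2). Ezh2, the main H3K27 methyltransferase, was at 144, 133.6 and 156.4 against 132.9, 117 and 127.8 CPM, also without overlap (-0.20, adjusted p 0.415). Suz12, the scaffold of PRC2, was at 69.3 ± 5.25 and 55.4 ± 11.9 CPM (SD, n = 3) with overlap.

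At E3.75 the sums overlapped, and Polycomb genes summed to 388.9 to 411.4 CPM in wild type embryos and 379.8 to 428.9 CPM in null ones. Eed was then at 132.8 and 124.1 CPM, Ezh2 at 176.8 and 177.9 CPM and Suz12 at 41.1 and 46 CPM, all overlapping. The change in the Eed difference from E2.5 to E3.75 was 0.48 (SE 0.20, adjusted p 0.275). At E4.5, 5 of 6 had a lower null mean (median -0.28), with overlapping sums of 253.6 to 325.9 and 213.7 to 259.4 CPM. Without null 1, the shallowest library, 4 were lower and 2 higher (median -0.113). Cbx7, a chromodomain subunit of PRC1, was at 47.88, 48.47 and 40.43 CPM in wild type embryos and 24.66, 28.9 and 31.27 CPM in null ones at that stage. These groups did not overlap (log2 difference -0.67, SE 0.23, adjusted p 0.207), whereas Cbx7 overlapped at E2.5 and E3.75.

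Of the DNA methylation enzymes, Dnmt3l and Dnmt3b were measured at every stage. Dnmt3l, the cofactor of the de novo methyltransferases, was at 149.2, 141.5 and 152.5 CPM in wild type embryos and 104.1, 112.6 and 132.5 CPM in null ones at E4.5 (log2 difference -0.35, SE 0.15, adjusted p 0.298). Dnmt3b, a de novo methyltransferase, was at 51.56, 44.6 and 46.86 against 27.4, 26.62 and 39.46 CPM at E4.5 (-0.62, SE 0.24, adjusted p 0.252). Both genes were without overlap at E4.5 and both overlapped at the 2 earlier stages. Summed, this role was at 201.7 to 209.5 CPM in wild type embryos and 137 to 183.9 CPM in null ones at E4.5.

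At E2.5 Dnmt3l was at 116.3 and 107.8 CPM and Dnmt3b at 32 and 33.2 CPM, and at E3.75 they were at 132.8 and 149.8 CPM and at 17.5 and 15.8 CPM. The change in the Dnmt3l difference from E3.75 to E4.5 was -0.52 (SE 0.22, adjusted p 0.276). Dnmt3a, measured at E2.5 only, was at 10.91, 20.74 and 12.16 against 7.343, 5.722 and 8.343 CPM (-0.90, SE 0.39, adjusted p 0.217). It did not overlap, but it passed the low-value filter through its wild type libraries alone. Dnmt1, the maintenance methyltransferase, was measured at E4.5 only, at 9.77 ± 5.92 and 10.4 ± 4.32 CPM (SD, n = 3). A pseudogene is named for Dnmt3a and for Dnmt3l, and reads of such copies could not be told apart here. Tet1, Tet2, Tet3 and Uhrf1, which oxidise methylcytosine or guide Dnmt1, were not analysed here, nor were Mta1, Kdm1a, Kdm6a and Cbx3.

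Setd6 (ENSMUSG00000031671), a methyltransferase known for its action on the NF-kappaB subunit RelA and on histone H2AZ, had the widest difference among called members. At E3.75 it was at 37.61, 31.41 and 27.77 CPM in wild type embryos and 11.56, 18.17 and 11.82 CPM in null ones, from 16 to 37 and 10 to 25 reads. The groups did not overlap, and Setd6 fell by 1.18 on the log2 scale (SE 0.30, 0.441-fold, 95% interval 0.288 to 0.676, adjusted p 0.0149 in limma, 0.0144 in edgeR). The adjusted p was 0.0679 without null 1, 0.0724 without null 3 and 0.11 with the first 2 libraries, and DESeq2 gave none. At E2.5 it was at 44.72, 44.93 and 34.05 against 39.65, 46.82 and 44.84 CPM, with overlap, and at E4.5 it was not analysed. The difference between those stages was not tested, because that fit took genes of all 3 tables.

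At E2.5, 5 of the 6 SET domain genes, Setd6 included, had a higher null mean and none was called, and at E3.75 2 of 5 did. Setd2, which trimethylates histone H3 at lysine 36, was at 69.81, 65.67 and 68.09 CPM in wild type embryos of E2.5 and 96.19, 78.55 and 101.7 CPM in null ones (log2 difference 0.43, SE 0.16, adjusted p 0.172). At E3.75 it was at 18.8, 25.47 and 27.77 against 33.53, 37.07 and 38.26 CPM (0.59, SE 0.25, adjusted p 0.154), and neither stage had overlap. At E4.5 Setd2 overlapped, at 18.6 and 18.3 CPM. Setdb1, an H3K9 methyltransferase that silences retroelements, overlapped at E2.5 (29.6 and 21.9 CPM) and at E3.75 (35.4 and 38.2 CPM). At E4.5 it was at 18.42, 17.45 and 19.3 against 13.7, 9.128 and 11.91 CPM, without overlap (-0.64, adjusted p 0.375), with 1 null library under the low-value filter.

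Among the lysine demethylases none was called. Kdm5b, which removes H3K4 methylation, was at 28.36, 42.63 and 34.05 against 44.79, 43.17 and 55.27 CPM at E2.5 (log2 difference 0.45, adjusted p 0.285). At E3.75 it was at 20.69, 25.47 and 24.3 against 18.5, 11.63 and 13.91 CPM (-0.66, adjusted p 0.206). The null libraries were therefore all above wild type at E2.5 and all below it at E3.75, and this change was not tested. Kdm3a, an H3K9 demethylase, was at 33.85, 39.9 and 31.25 against 19.65, 23.99 and 21.56 CPM at E3.75 (-0.66, adjusted p 0.114), while it overlapped at E2.5 and E4.5.

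The 12 members grouped as SWI/SNF and ISWI type at E2.5 summed to 751.6 to 793.7 CPM in wild type embryos and 907.8 to 923.7 CPM in null ones. Of these 7 were higher, 5 lower and none called (median log2 difference 0.109). The group includes Smarcad1 and Smarcal1, which share the Smarc name but are not subunits of SWI/SNF or ISWI complexes. The gap in the sum came mostly from abundant genes such as Smarca4, Smarcd2 and Brd9. Smarcd2, an accessory subunit, was at 97.09, 110.6 and 112.7 CPM in wild type embryos and 191.6, 134.7 and 161.1 CPM in null ones (log2 difference 0.59, SE 0.16, adjusted p 0.0843 in limma, 0.0357 in DESeq2). Smarca4 (Brg1), the catalytic ATPase, was at 135.3, 133.6 and 128.9 against 154.2, 219 and 185.6 CPM (0.47, SE 0.14, adjusted p 0.112). Neither gene's groups overlapped.

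Arid2, a subunit of the PBAF form of SWI/SNF, was at 43.63, 28.8 and 40.53 against 19.09, 17.69 and 22.94 CPM at E2.5, lower in every null library (-0.87, SE 0.26, adjusted p 0.104). Arid1a, a subunit of the BAF form, was at 48, 39.17 and 52.69 against 58.74, 61.9 and 56.32 CPM, higher in every null library (0.34, adjusted p 0.335). At E3.75 the 11 measured genes summed to 470.4 to 496.4 and 471.6 to 508.7 CPM, and Smarca4 was at 89 and 89.7 CPM. At E4.5 Smarcc1, a core subunit, was at 11.05, 17.45 and 20.21 against 38.36, 29.67 and 23.08 CPM without overlap (0.87, SE 0.33, adjusted p 0.243), while the core subunit Smarcb1 overlapped at 137.7 and 126.1 CPM.

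Brd9 (ENSMUSG00000057649), the bromodomain subunit of the non-canonical BAF complex, was the member whose genotype difference changed across stages. At E2.5 it was at 105.8, 76.03 and 94.84 CPM in wild type embryos and 119, 126.9 and 119.9 CPM in null ones (log2 difference 0.41, SE 0.16, adjusted p 0.172). At E3.75 it was at 75.22, 50.09 and 59.02 against 48.55, 40.71 and 52.86 CPM (-0.36, adjusted p 0.302). At E4.5 it was at 71.82, 56.23 and 65.24 against 41.1, 25.86 and 32.76 CPM (-0.95, SE 0.23, adjusted p 0.145, or 0.0395 without null 1). All null libraries were above wild type at E2.5 and all were below it at E4.5, with overlap between.

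The difference of Brd9 fell by 1.36 on the log2 scale from E2.5 to E4.5 (SE 0.29, adjusted p 0.0213, limma over 18 libraries), 1 of 40 members (2.5%) where 1.01% of all 5430 shared genes passed. From E2.5 to E3.75 limma called 0 of 40 members (all genes 1.12%), and from E3.75 to E4.5 0 of 40 (all genes 0.0921%). edgeR called 0 in both of these and called Brd9 from E2.5 to E4.5 (adjusted p 0.00482). An unadjusted p below 0.05 in limma was found for 7 of 40 from E2.5 to E3.75 (all genes 13.9%). It was found for 8 of 40 from E3.75 to E4.5 (all genes 14.3%) and 6 of 40 from E2.5 to E4.5 (all genes 17.1%). The members' share was thus above that of all genes at both steps and below it from E2.5 to E4.5. These shares were not compared by a test. The Brd9 call was lost with the first 2 libraries of each group (-1.39, adjusted p 0.654), without E2.5 null 2 (0.0679) or null 3 (0.0775), and without E4.5 wild type A (0.0803), wild type C (0.0512), null 2 (0.0558) or null 3 (0.0585). An antisense gene, Gm41002, overlaps the 3′ end of Brd9 in the GENCODE annotation of build GRCm38, and its reads cannot be told apart here because no strand setting is given. No annotated gene overlaps Hdac2, Setd6, Mbd3, Cbx5 or Mta3.

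Brd2, a BET protein of transcribed chromatin, was at 1.88, 12.74 and 6.944 against 25.43, 16.72 and 14.61 CPM at E3.75 (1.51, SE 0.49, adjusted p 0.0583), on 1 to 15 wild type reads. Of the other remodellers, Chd1l, a DNA repair helicase, was at 30.09, 12.74 and 26.04 against 8.092, 9.45 and 10.43 CPM at E3.75 (-1.14, SE 0.38, adjusted p 0.0629). Neither gene's groups overlapped, but 1 of 3 wild type libraries of Brd2 and 1 of 3 null libraries of Chd1l reached the 10.4 CPM that 3 libraries of a listed gene had to reach.

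Several further members were without overlap at 1 or 2 stages and did not pass the test. At E2.5, Smarcd3, a SWI/SNF subunit, averaged 77.8 ± 5 and 97.1 ± 6.85 CPM (wild type, then null; SD, n = 3), and Setd4 averaged 14.2 ± 2.83 and 22.3 ± 3.07 CPM (SD, n = 3). The chromatin remodeller Chd8 (22.6 and 12.5 CPM), the demethylases Kdm3b (20.2 and 12.4 CPM) and Kdm2b (13.8 and 11.1 CPM), the PRC1 subunit Cbx2 (34.6 and 24.8 CPM) and the ISWI ATPase Smarca5 (23.5 and 18.2 CPM) were lower in every null library at E2.5, with adjusted p from 0.16 to 0.661. A pseudogene is named for Smarca5. At E3.75 Brd8, a subunit of the NuA4 acetyltransferase complex, averaged 32.3 ± 6.77 and 19.4 ± 0.929 CPM (SD, n = 3, adjusted p 0.123 in limma). Setd3, an actin histidine methyltransferase, was above wild type in every null library at E2.5 (31.2 and 37.7 CPM) and below it at E3.75 (50.9 and 39 CPM), and Uhrf1bp1l went the other way (16.6 and 7.93 CPM, then 18 and 23.5 CPM), although at E2.5 it passed the low-value filter through wild type alone. Neither change between stages passed (adjusted p 0.378 and 0.35 in limma). Arid3b, a DNA-binding ARID protein (65 and 50 CPM, 23.4 and 33.3 CPM, 39.9 and 47.3 CPM over the 3 stages), and the BET gene Brd3 (38.4 and 37.5 CPM, 30.9 and 36.6 CPM, 28.4 and 27.6 CPM) overlapped throughout.

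Low levels limit many of these values. At E2.5, 14 of 60 members averaged under 20 CPM. The same held for 15 of 51 in the blastocysts of E3.75 and for 14 of 48 in the late ones. Only genes that reach about 10 CPM in at least 3 libraries are listed. All 3 libraries of both genotypes did so for 50, 39 and 36 members. All 3 did so in wild type alone for 4, 4 and 3 members and in null alone for 3, 2 and 5. In neither genotype did all 3 do so for 3, 6 and 4 members. Where 1 genotype alone passed, the filter favours a difference but does not force it, and such groups could still overlap.

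Some members had the same sign at all 3 stages. Mta3, Setd2, Smarca4 and Smarcd2 had higher null means on the log2 scale each time (4 of 40, all genes 15.6%). Lower null means each time were found for 5 of 40 (12.5%, all genes 17.1%). Cbx5, Eed, Hdac2 and Sirt2 were so also with TMM factors or DESeq2 size factors. Under either of these scalings 2 were higher throughout (Mta3 and Smarcd2), since Setd2 and Smarca4 each had a stage close to 0. Smarcd2 had its E4.5 sign from null 1 alone, at 167.2 CPM against 44.12 and 84.14 CPM in the other null libraries, and its difference there was -0.14 without that library.

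Levels also differed by stage, which is given as description since stages were scaled apart. In wild type embryos 20 of 40 members were lower at E4.5 than at E2.5 with no overlap and 4 were higher, beside 2268 and 1125 of 5430 genes, and the median ratio of E4.5 to E2.5 was 0.712 for members and 0.797 for all genes. Sirt7 went from 51.8 to 17.2 to 10.7 CPM over the 3 stages, Sirt6 from 105.7 to 18.5 to 22.9 CPM and Setd2 from 67.9 to 24 to 18.6 CPM. Eed went from 194.2 to 132.8 to 84.3 CPM, with no overlap at either step. Ezh2 was at 144.7, 176.8 and 73.3 CPM, with E4.5 the lowest.

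Ezh1, the PRC2 methyltransferase of resting cells, ran the other way in wild type embryos, at 6.68, 23.2 and 36.8 CPM, although on 3 to 15 reads a library at E2.5. Cbx7 was at 27.4, 29.6 and 45.6 CPM and Smarcb1 at 81.7, 77.4 and 137.7 CPM, each with E4.5 above E2.5 without overlap. In null embryos Eed was at 130.1, 124.1 and 72.6 CPM and Cbx7 at 24.5, 32.6 and 28.3 CPM, so that wild type and null levels of Eed lay apart at E2.5 and those of Cbx7 at E4.5.

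**Figure D4:**
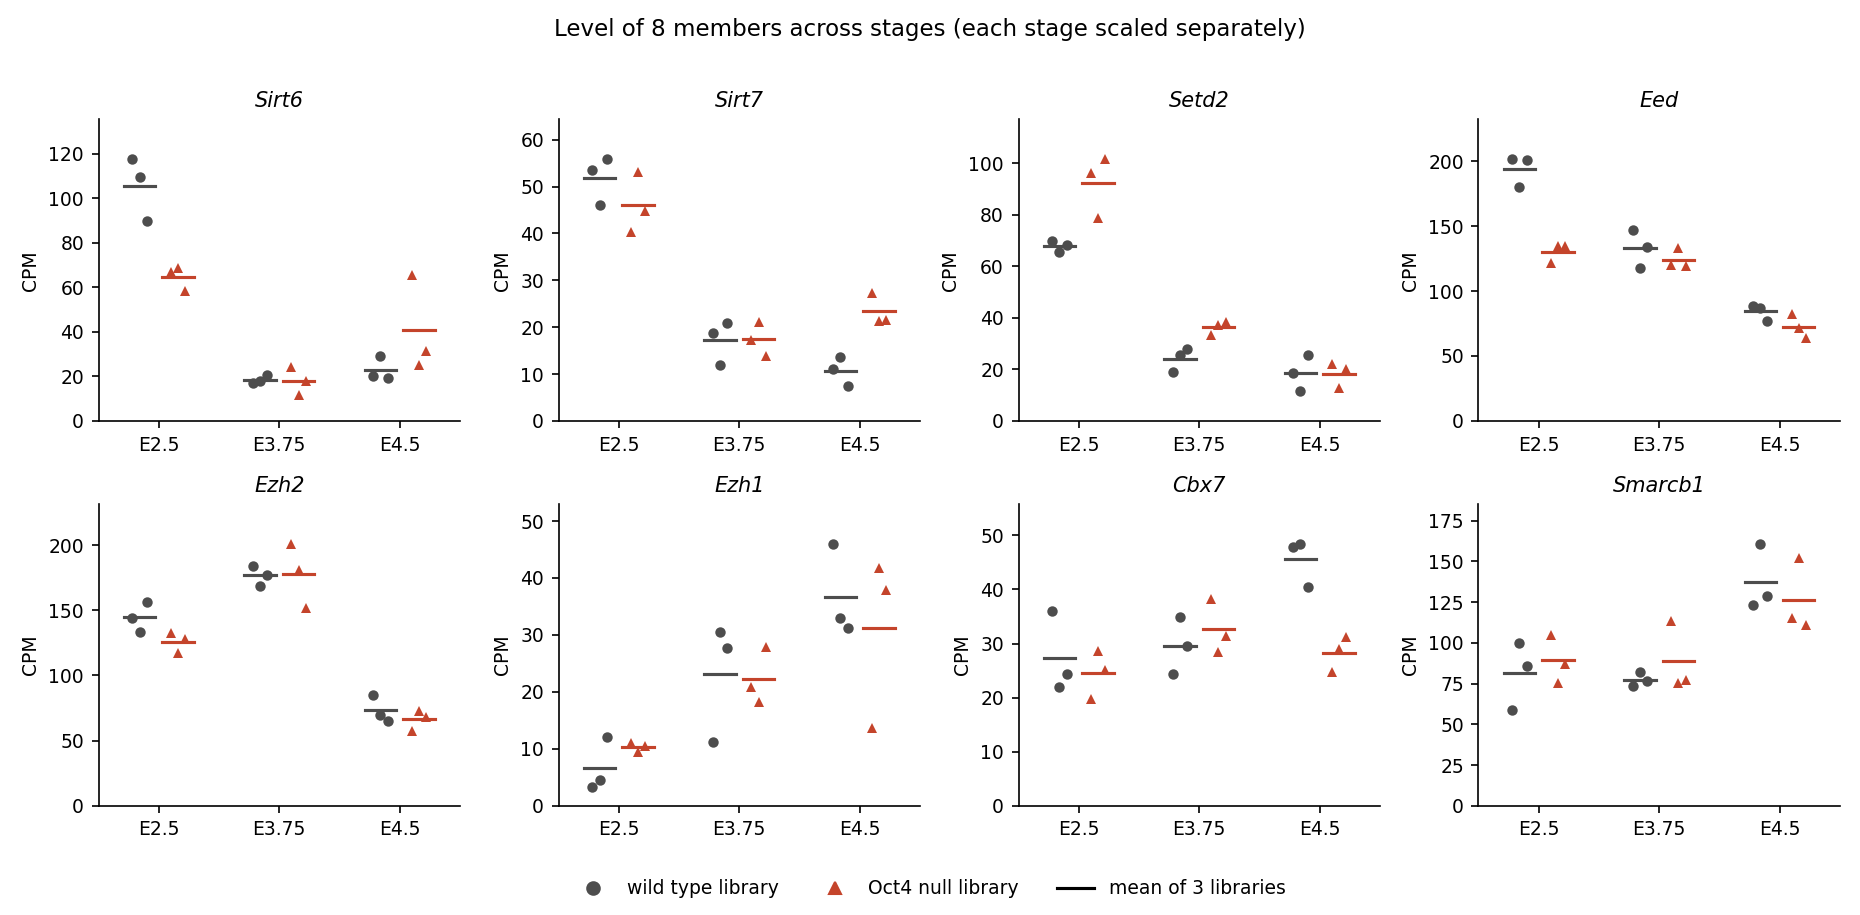
CPM in each library for 8 members across the 3 stages, which were scaled separately; circles are wild type, triangles null libraries, and bars mark the mean of 3 libraries. Sirt6, Sirt7, Setd2 and Eed are highest at E2.5 in wild type, Ezh2 is lowest at E4.5, and Ezh1, Cbx7 and Smarcb1 are highest at E4.5.

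Partner genes, listed by complex or by a related function such as methylation protection or histone acetylation, were called by limma at about the rate of all genes. No listed partner of NuRD, SWI/SNF, PRC1, PRC2, Sin3 or CoREST was called by limma at any stage. Of 62 measured at E2.5 limma called 0 (all genes 0.593%), edgeR 1 and DESeq2 1 (179 and 232 of 7082 genes). An unadjusted p below 0.05 was found for 16 of the 62, where 20.4% of all genes had one. Of 56 at E4.5 limma called 0 (all genes 0.0%), edgeR 0 and DESeq2 0 (42 and 112 of 6545 genes), with 5 unadjusted (all genes 15.0%). At E3.75, 1 of 57 rose and 3 fell by limma (7.02%, all genes 8.2%), with 17 unadjusted (all genes 22.8%). There edgeR called 5 and DESeq2 2 (552 and 288 of 6648 genes). Dppa3, which protects maternal 5-methylcytosine from oxidation, rose from 1125 ± 127 to 1396 ± 37.2 CPM (SD, n = 3, adjusted p 0.0141 in limma), with a pseudogene named for it. Naa10 fell from 146.8 ± 27.6 to 91.2 ± 14.9 CPM (SD, n = 3, adjusted p 0.0112 in limma). It was listed with the histone acetyltransferases but is a subunit of an enzyme that acetylates protein N-termini. Ahcy, which clears S-adenosylhomocysteine, fell from 43.6 ± 13.6 to 21.9 ± 4.55 CPM (SD, n = 3, adjusted p 0.0354 in limma), and Men1 of the H3K4 methyltransferase complexes from 60.1 ± 16.1 to 34.5 ± 9.02 CPM (SD, n = 3, adjusted p 0.0419 in limma).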

How the data were processed

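Polyadenylated RNA of Oct4 +/+ and Oct4 -/- CD1 embryos was extracted with Picopure columns, primed with oligo(dT) and amplified next to the polyA tail, per the labels' protocols. The deposited values are CPM, which the authors computed per stage from reads per gene, with edgeR and build mm9 listed per the submitters' processing notes. No aligner, counter or annotation is given in the sources used here. All 121650 values came out as whole reads within 0.01 reads once divided by the value of 1 read. Totals over the listed genes ranged from 364936 to 1922432 reads per library.

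Genotypes were compared within a stage by limma 3.58.1 (R 4.3.3) on log2(CPM + 1), two-sided, with Benjamini-Hochberg adjustment over all listed genes and calls at an adjusted p below 0.05. Because of the added 1, fold changes of genes with low CPM come out too small. Differences between stages came from 1 limma fit of 18 libraries over 5430 shared genes. The fits were tested on simulated data. Alternatives were edgeR 4.0.16 and DESeq2 1.42.0 on recovered reads, other scalings, pseudocounts of 0.1 and 5, dropping genes with a mean under 10 CPM, a replicate block, 1 fit of all libraries and libraries left out in turn. The E4.5 wild type columns all bear 1 name, so these libraries are labelled A, B and C.

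The members, role lists, partner lists and markers were chosen with earlier results of these data known. Named genes were every called member, the 3 members of smallest p in each direction at each stage, the most abundant member of each role, a list of core subunits, members called for a change between stages (or the 2 of smallest p), and called partner genes. Ezh1, Sirt2, Arid2, Cbx2, Kdm2b, Kdm3b, Setd4, Smarcd3 and Uhrf1bp1l were chosen after their values were seen. Symbols came from a mouse annotation and matched 8068 of 8202 gene identifiers. Results of 1 member are not reported here.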

Additional observations from a re-analysis of the deposited data

Results flagged for a closer look

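The genotype difference of Brd9 changed by -1.36 on the log2 scale from E2.5 to E4.5 (limma, adjusted p 0.0213), from 0.41 to -0.95. The groups were apart at both stages, null above wild type in 3 of 3 libraries at E2.5 and below it in 3 of 3 at E4.5. For Kdm5b, every null library was above wild type at E2.5 and below it at E3.75, a change of -1.11 that was not tested, because the fit over stages took genes listed at all 3 stages.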

How the results depend on the processing

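At E2.5, where 1 member was called, edgeR called 2, DESeq2 4, the first 2 libraries of each group 0, and leaving out 1 library 0 to 5. The fit of all 18 libraries called 2 of the 40 members measured at all 3 stages (139 of 5430 genes). At E3.75, where 4 were called, TMM factors gave 2, DESeq2 size factors 2, edgeR 2 and DESeq2 1. The first 2 libraries gave 1 (Mbd2, which was not called otherwise), and leaving out 1 library 0 to 5. All 18 libraries in one fit gave 0 of 40 members (213 of 5430 genes), but that fit could not test Setd6, which was not analysed at E4.5. At E4.5, where 0 were called, the fit of all 18 libraries called 2 of 40, Brd9 and Sirt7 (221 of 5430 genes), and leaving out 1 library 0 to 1. Without null 1 at that stage, the sign of the difference changed for 9 of 48 members. For the change from E2.5 to E4.5, with 1 called, the first 2 libraries gave 0 and leaving out 1 library 0 to 3. Over all genes the E2.5 calls, 42, came to 179 in edgeR, 232 in DESeq2, 99 with TMM factors and 1 to 773 with 1 library left out, so the background moved too. The 545 calls of E3.75 came to 552 in edgeR, 288 in DESeq2, 503 with TMM factors and 155 with the first 2 libraries. With 1 library left out they were 209 to 652. The 0 calls of E4.5 came to 42 in edgeR, 112 in DESeq2 and at most 120 with 1 library left out. The median member difference at E2.5, -0.059, ran from -0.126 to -0.014 with 1 library left out.

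With the replicate block the counts were 0 at E2.5 and 2 at E3.75, where Mbd3 (adjusted p 0.0507) and Cbx5 (0.0502) were lost, and Hdac2 was at 0.0645. Deviations of libraries with the same number had low correlations (r from -0.003 to 0.121 at E2.5 and from -0.031 to 0.01 at E3.75). The highest, 0.121, was for number 2 at E2.5, where the wild type library reached at most -0.062 with the other null libraries. Such values, from few and noisy libraries, cannot show whether the libraries were paired. No paired analysis was possible for E4.5 because its wild type columns carry no distinct number. The cause of these changes was not tested. No named member called in its comparison changed direction under any alternative. DESeq2 gave no adjusted p for 14 members at E2.5, for 24 at E3.75, and at E4.5 for 36 of 48. A median of 11 to 75 reads per member in a library limits what could be detected.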
